A study of Homo sapiens with 10 samples.

Results

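The D-type cyclins and the G1 kinases, with 2 kinase inhibitors and the retinoblastoma protein, were followed across every array of a silencing study in HEK-293 cells. The genes were taken by their symbol in the platform annotation: CCND1, CCND2, CCND3, CDK2, CDK4, CDK6, CDKN1B, CDKN2C and RB1. Of these 9 genes, 8 had a listed probe set, 1 each, among the 18404 genes with a single symbol. CDKN2C was not listed and is not analysed here. The group was picked because CCND2 fell the most among its members with the siRNAs against LOC440173, so the CCND2 values in those comparisons are given as a description without a test.

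D-type cyclins are the part of the cell cycle engine that answers to growth signals. They bind CDK4 or CDK6, and these kinases start the phosphorylation of RB1, which otherwise holds E2F transcription factors in check. CDK2 with an E-type cyclin completes that step and carries cells into DNA synthesis, CDKN1B (p27) restrains CDK2, and INK4 proteins such as CDKN2C bind CDK4 and CDK6 themselves. HEK-293 cells carry adenoviral early genes, whose product binds RB1 directly.

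HEK-293 is a line of human embryonic kidney cells with neuronal features. The 5 groups held 2 arrays each, and RNA was taken 48 hours after transfection in all of them. A control siRNA was used at 10 nM and again at 100 nM, siRNA 1 and siRNA 2 against the long non-coding RNA LOC440173 (LINC02893 in current naming) at 10 nM, and 1 siRNA against the non-coding RNA PAXIP1-AS1 at 100 nM. All groups therefore carried a transfected siRNA, and no array came from untreated cells. The labels call the arrays of a group biological replicates without saying how the cultures were kept apart, so p-values measure the spread between these arrays.

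Levels are log2 probe set values, and a difference of 1 on this scale is a 2-fold change. Array medians lay between 7.06 and 7.12. LINC02893 stood at 8.48 and 8.60 with the control at 10 nM, at 7.72 and 7.43 with siRNA 1, and at 6.71 and 6.59 with siRNA 2, which is 51.4% and 27% of the control mean. PAXIP1-AS1 was not analysed here, so its silencing was not checked. Of 11 measured HEK-293, embryonic kidney and neuronal markers, 8 were above the median of all probe sets (7.62) on every array. These were CDH2, EYA1, INA, KRT18, NEFL, NEFM, SALL1 and VIM, while PAX2, LHX1 and KRT8 did not pass on every array. Among markers of fibroblasts, endothelium, blood cells, hepatocytes, keratinocytes and mature kidney tubule, COL1A1 and LRP2 were the only genes that passed this line. The mean level over the first list was 9.41 to 9.42 with the control at 10 nM, 9.34 on both arrays of siRNA 1, 9.37 to 9.40 with siRNA 2, 9.39 to 9.45 with the control at 100 nM, and 9.22 to 9.23 with the PAXIP1-AS1 siRNA. These means cover shifts of single genes in both directions: NEFM differed by -0.77 with siRNA 1 and by 1.11 with siRNA 2. Of the 12 probe sets of this list limma called 3 with siRNA 1 (1 higher), 9 with siRNA 2 (3 higher) and 3 with the PAXIP1-AS1 siRNA (0 higher). Over all probe sets 28.2%, 29.3% and 4.33% were called. The part of these shifts in the results was not tested.

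**Figure D1:**
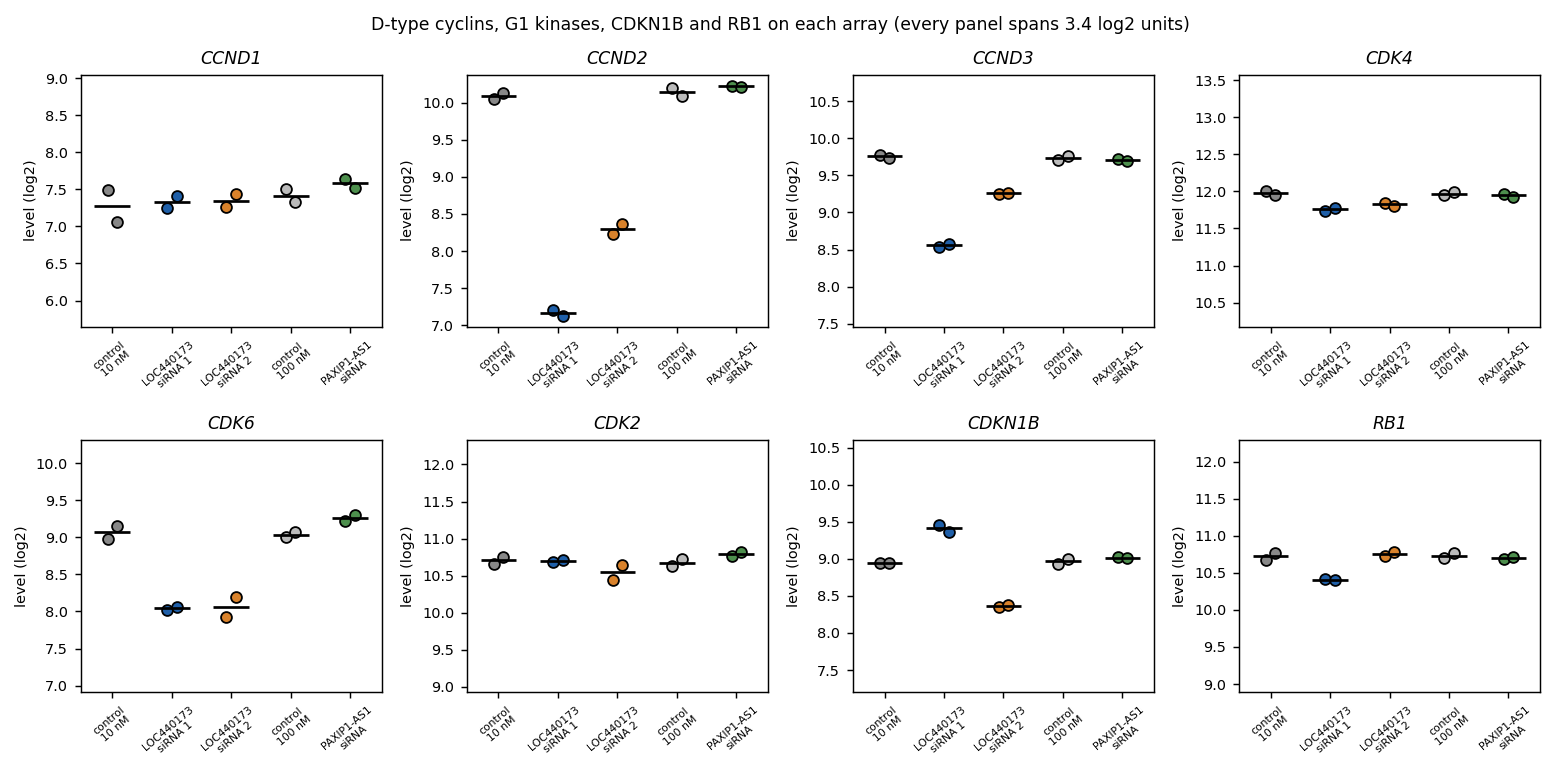
Level (log2) of each measured gene on each of the 10 arrays; points are arrays, horizontal lines are means of 2 arrays, and every panel covers the same height. CCND2, CCND3 and CDK6 are low on the 4 LOC440173 arrays, CDKN1B is high with siRNA 1 and low with siRNA 2, and CCND1 and CDK2 stay near their control levels.

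CCND2, cyclin D2, had the widest range of the group. Its level was 10.05 and 10.14 with the control at 10 nM, 7.21 and 7.13 with siRNA 1, 8.23 and 8.37 with siRNA 2, 10.20 and 10.09 with the control at 100 nM, and 10.23 and 10.22 with the PAXIP1-AS1 siRNA. The 4 LOC440173 arrays lay far below the other 6, and those of siRNA 1 lay below those of siRNA 2. The log2 difference from the control was -2.92 (SE 0.069) with siRNA 1, which leaves 13.2% of the control level, and -1.80 (SE 0.069) with siRNA 2, which leaves 28.8%. Both siRNA 1 arrays lay below the median of all probe sets (7.62). How far they lay above background is unknown, so 13.2% is a ratio of array values and may not be the share of RNA left. Ordered by fall among all 19158 probe sets, CCND2 was number 1 with siRNA 1 and number 22 with siRNA 2. siRNA 2 stood above siRNA 1 by 1.13 (SE 0.069) for CCND2, while LINC02893 itself was lower with siRNA 2 than with siRNA 1 by a difference of -0.93 (SE 0.099). The siRNA with the lower LINC02893 level had the higher CCND2 level, and what lies behind this order was not tested. The LINC02893 means, 7.58 with siRNA 1 and 6.65 with siRNA 2, lay below the median of all probe sets (7.62). The arrays measure RNA from whole cultures, so fewer cells with CCND2 and less CCND2 RNA per cell cannot be told apart, and the same holds for every gene here.

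CCND3, cyclin D3, moved the same way by a smaller amount. It stood at 9.78 and 9.73 with the control at 10 nM, 8.54 and 8.57 with siRNA 1, and 9.25 and 9.26 with siRNA 2. Neither group overlapped with the control or with the other siRNA. CCND3 fell to 43.5% of the control with siRNA 1, a log2 difference of -1.20 (SE 0.049, limma adjusted p = 8.58e-06). It fell to 70.8% with siRNA 2, a difference of -0.50 (SE 0.049, limma adjusted p = 0.000229). Compared directly, siRNA 2 exceeded siRNA 1 by 0.70 (SE 0.049, limma adjusted p = 2.43e-05), so CCND3, like CCND2, was lowest with siRNA 1. With the control at 100 nM it was 9.70 and 9.76, between the lowest PAXIP1-AS1 array (9.69) and the highest 10 nM control array.

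CCND1, cyclin D1, was not called with either LOC440173 siRNA. Its probe set was dim: every group mean, from 7.27 to 7.58, lay below the median of all probe sets (7.62), the line under which dim probe sets were left out in an alternative. Its arrays read 7.50 and 7.05 with the control at 10 nM, 7.24 and 7.40 with siRNA 1, and 7.26 and 7.43 with siRNA 2. The control arrays alone spanned both LOC440173 groups. The log2 difference was 0.05 (95% interval -0.29 to 0.39, limma adjusted p = 0.826) with siRNA 1 and 0.07 (-0.27 to 0.41, adjusted p = 0.783) with siRNA 2. Replicates of CCND1 spread more than those of the other members (pooled SD 0.17, against 0.028 for CCND3), and its interval was the widest of the group.

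The CCND3 promoter is shown because CCND3 had the largest fall among the members that were tested. RefSeq gives 3 start sites for CCND3 in GRCh38.p14, and the array does not tell them apart. The window printed is the one of the 3 with the most motif matches, the 250 bases before the start at chr6:42048689-42048938 on the minus strand. Capitals in this and the other promoters mark exact matches, on either strand, to the E-box CACGTG, the SP1 box GGGCGG, the CCAAT box CCAAT, the E2F site TTTNNCGC, where N is any base, and the site TGTTTAC of FOXO factors.
CCND3 promoter: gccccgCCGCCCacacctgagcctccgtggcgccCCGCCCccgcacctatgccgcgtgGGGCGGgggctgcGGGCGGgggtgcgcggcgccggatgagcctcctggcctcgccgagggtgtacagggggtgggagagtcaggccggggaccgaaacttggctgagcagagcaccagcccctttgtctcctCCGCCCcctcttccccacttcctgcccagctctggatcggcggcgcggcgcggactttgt
It held 5 SP1 boxes and no match to the other motifs. A match says only that the letters are there. SP1 boxes were in 42.6% of 35116 RefSeq promoter windows of this length, so holding one is common. Windows for CCND1, CCND2 and CDK2 are not shown here.

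CDK6, a partner kinase of the D-type cyclins, fell with both LOC440173 siRNAs by nearly equal amounts. Its level was 8.98 and 9.16 with the control at 10 nM, 8.02 and 8.06 with siRNA 1, and 7.92 and 8.20 with siRNA 2. The 2 arrays of siRNA 2 enclosed those of siRNA 1, and all 4 lay below both controls. The log2 difference was -1.02 (SE 0.099, limma adjusted p = 0.000246) with siRNA 1 and -1.0 (SE 0.099, adjusted p = 0.000232) with siRNA 2, which leaves 49.2% and 49.8% of the control. siRNA 2 minus siRNA 1 was 0.02 (95% interval -0.21 to 0.25, adjusted p = 0.903). CCND3, by comparison, was called in that contrast.

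CDK4, the other partner of the D-type cyclins, moved little. It stood at 12.01 and 11.95 with the control at 10 nM, 11.74 and 11.78 with siRNA 1, and 11.85 and 11.80 with siRNA 2. Both LOC440173 groups were below the control without overlap. The log2 difference was -0.22 (SE 0.051, limma adjusted p = 0.0154) for siRNA 1, at 85.9% of its control, and -0.15 (SE 0.051, adjusted p = 0.0597) with siRNA 2, which missed the threshold of 0.05. The siRNA 1 call was lost without control 10 nM replicate 1 (adjusted p = 0.0578), siRNA 1 replicate 1 (0.0951) or siRNA 1 replicate 2 (0.0543), and when the fit held only the compared groups (0.0879). Over all 17 alternatives its adjusted p ran from 0.000319 to 0.0951. The siRNA 2 difference was called with dim probe sets left out (adjusted p = 0.0158) and with an intensity trend and robust prior (0.00383), within a range of 0.00383 to 0.254.

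The promoters of both kinases are shown because they serve the same cyclins and differed in how far they moved. For CDK6 the window is the one of 2 with the most motif matches, the 250 bases before the start at chr7:92836574-92836823 on the minus strand. For CDK4 it is chr12:57752311-57752560, also on the minus strand.
CDK6 promoter: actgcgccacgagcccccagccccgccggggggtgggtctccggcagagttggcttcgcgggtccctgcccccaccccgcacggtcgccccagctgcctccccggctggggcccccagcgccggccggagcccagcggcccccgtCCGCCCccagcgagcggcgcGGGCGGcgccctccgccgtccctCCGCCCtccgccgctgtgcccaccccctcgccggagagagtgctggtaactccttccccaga
CDK4 promoter: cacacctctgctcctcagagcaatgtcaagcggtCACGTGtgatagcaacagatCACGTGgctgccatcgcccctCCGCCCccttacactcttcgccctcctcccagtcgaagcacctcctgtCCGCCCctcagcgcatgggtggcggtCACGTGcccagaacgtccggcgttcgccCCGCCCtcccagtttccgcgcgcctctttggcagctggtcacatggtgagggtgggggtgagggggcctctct
The CDK4 window held 3 E-boxes, a motif found in 6.34% of all windows, and 3 SP1 boxes. The CDK6 window held 3 SP1 boxes and no E-box. Neither held the E2F site, which was in 5.92% of windows, or the FOXO site, which was in 2.98%.

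CDK2, the kinase of E-type cyclins, read 10.66 and 10.76 with the control at 10 nM, 10.69 and 10.71 with siRNA 1, and 10.44 and 10.65 with siRNA 2. The siRNA 1 arrays lay between the control arrays, and those of siRNA 2 just below them. The log2 difference was -0.01 (95% interval -0.19 to 0.17, limma adjusted p = 0.929) with siRNA 1 and -0.16 (-0.34 to 0.02, adjusted p = 0.174) with siRNA 2. The siRNA 2 difference depended on which array was kept: it was -0.27 without siRNA 2 replicate 2 and -0.06 without siRNA 2 replicate 1. CDK2 read higher on replicate 2 than on replicate 1 in all 5 groups. A single siRNA 2 array is therefore not balanced against control arrays of both numbers. The contrast of siRNA 2 with siRNA 1 was -0.15 (limma adjusted p = 0.181) with all arrays. It was -0.26 without siRNA 2 replicate 2 and -0.05 without siRNA 2 replicate 1.

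CDKN1B, the inhibitor p27, was the member that moved in opposite directions with the LOC440173 siRNAs. It stood at 8.94 and 8.95 with the control at 10 nM, 9.46 and 9.36 with siRNA 1, and 8.35 and 8.38 with siRNA 2. The 3 groups were fully separate, with the control in the middle. CDKN1B rose to 138% of the control with siRNA 1, by 0.47 (SE 0.053, limma adjusted p = 0.000526), and fell to 66.8% with siRNA 2, by -0.58 (SE 0.053, adjusted p = 0.000158). siRNA 2 minus siRNA 1 was -1.05 (SE 0.053, adjusted p = 6.5e-06), and over the 17 alternatives it stayed between -1.10 and -1.0.

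The CDKN1B promoter is shown as that of the gene whose direction differed between the siRNAs. The window is the 250 bases before the start at chr12:12717118-12717367 on the plus strand.
CDKN1B promoter: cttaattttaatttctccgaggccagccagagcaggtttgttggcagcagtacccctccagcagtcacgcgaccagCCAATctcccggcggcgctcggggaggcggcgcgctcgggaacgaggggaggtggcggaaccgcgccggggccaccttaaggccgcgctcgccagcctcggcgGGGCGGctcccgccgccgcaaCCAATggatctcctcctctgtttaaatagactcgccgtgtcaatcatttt
It held 2 CCAAT boxes, a motif found in 32% of all windows, and 1 SP1 box. The share of G and C in the printed windows ran from 64.4% in CDKN1B through 65.6% in CDK4 and 74.4% in CCND3 to 80% in CDK6. The CCND3 and CDK6 windows were picked for motif matches, all of them to the SP1 box, which holds only G and C. The RB1 window, not printed, at chr13:48476200-48476449 on the plus strand, held 36.8%. Whether that start is the main start of RB1 was not checked, so its share is not compared with the others.

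RB1, the retinoblastoma protein that the cyclin D kinases inactivate, was lower with siRNA 1 and near its control level with siRNA 2. Its level was 10.68 and 10.77 with the control at 10 nM, 10.41 and 10.40 with siRNA 1, and 10.72 and 10.78 with siRNA 2. The siRNA 1 arrays lay below every other array, and those of siRNA 2 overlapped with the control. RB1 fell to 80.5% of the control with siRNA 1, by -0.31 (SE 0.055, limma adjusted p = 0.00401), and differed by 0.03 (95% interval -0.10 to 0.16, adjusted p = 0.755) with siRNA 2. siRNA 2 exceeded siRNA 1 by 0.34 (SE 0.055, adjusted p = 0.00159).

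**Figure D2:**
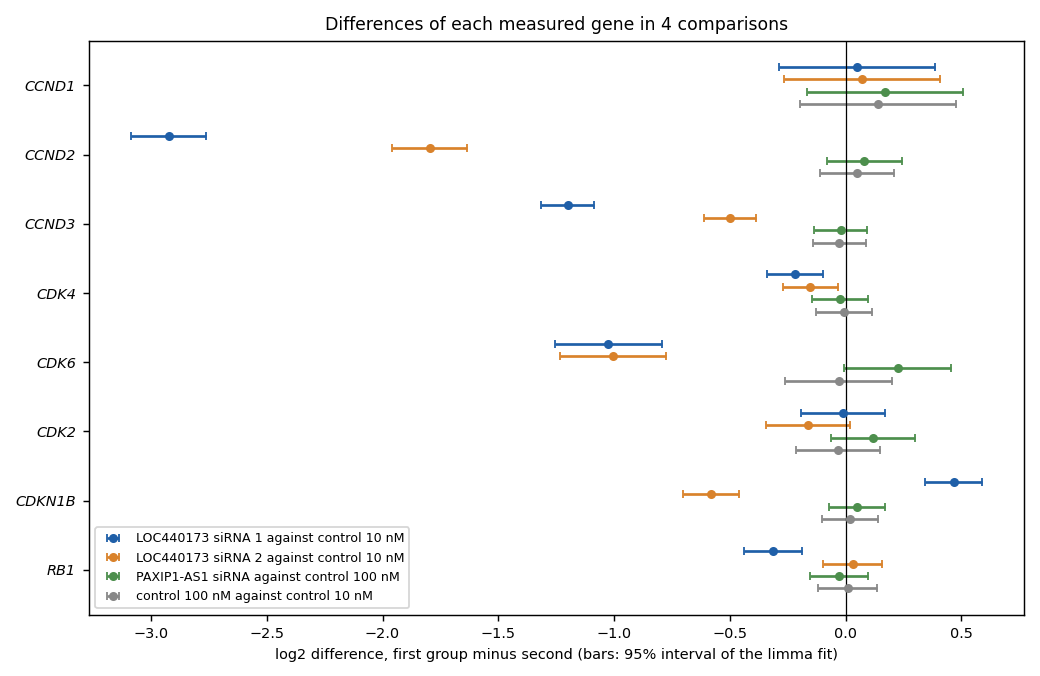
Log2 difference of each measured gene in 4 comparisons, with the 95% interval of the limma fit (n = 2 arrays per group). CCND2 reaches -2.92 and -1.80 with the LOC440173 siRNAs, CDKN1B lies on opposite sides of 0, and all intervals for the PAXIP1-AS1 siRNA and for the control doses include 0.

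Counted over the 7 measured members other than CCND2, siRNA 1 gave 1 higher, 4 lower and 2 not called, in a comparison that called 28.2% of all probe sets (11.8% higher and 16.4% lower). siRNA 2 gave 0 higher, 3 lower and 4 not called, where 29.3% of probe sets were called (12.3% higher and 17% lower). Between the siRNAs, 2 were higher with siRNA 2, 1 was lower and 4 were not called, against 36.6% of probe sets called (18% higher and 18.6% lower). Because the group was chosen from the LOC440173 comparisons, nothing is read from these counts. The median difference of the 7 genes was -0.22 with siRNA 1 and -0.16 with siRNA 2, beside 0.05 and 0.01 for all probe sets. Both siRNAs were set against the same control arrays, so their values are not independent of each other.

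The members were chosen with earlier results of these data known, though the pick of the group named the LOC440173 siRNAs. The comparison of the PAXIP1-AS1 siRNA with the control at 100 nM was not named in that pick. Of the 8 members 0 were called in it by limma and 0 had an unadjusted p under 0.05, where 4.33% of all probe sets were called (2.68% higher and 1.65% lower). CDK6 came closest: it read 9.22 and 9.30 against 9.0 and 9.07 in the control, without overlap. The log2 difference was 0.22 (95% interval -0.01 to 0.45, limma adjusted p = 0.289), on the other side of 0 from the LOC440173 siRNAs. CCND1, at 7.64 and 7.52 against 7.50 and 7.32, differed by 0.17 (-0.17 to 0.51, adjusted p = 0.631), and CDK2, at 10.76 and 10.82 against 10.62 and 10.73, by 0.12 (-0.06 to 0.30, 0.508).

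The intervals of the other members in this comparison included 0 as well. CCND2 differed by 0.08 (95% interval -0.08 to 0.24, limma adjusted p = 0.634), CCND3 by -0.02 (-0.14 to 0.09, 0.880) and CDKN1B by 0.05 (-0.07 to 0.17, 0.714). CDK4 and RB1 differed by -0.02 and -0.03 (adjusted p = 0.873 and 0.855). For CCND3, CDK4, CDKN1B and RB1 the intervals reach no further than 0.17 on either side, which bounds the change these arrays allow.

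Raising the dose of the control siRNA from 10 nM to 100 nM gave a measure of the background. Limma called 0 of the 8 members and 0% of all probe sets, while 724 of 19158 probe sets and 0 members had an unadjusted p under 0.05. The largest difference among the members was 0.14 for CCND1 (95% interval -0.20 to 0.48), and CCND2 differed by 0.05 (-0.11 to 0.21).

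Whether the effects differed between the experiments was tested as the PAXIP1-AS1 effect minus the mean LOC440173 effect, each against its own control. That difference was 1.24 for CDK6 (SE 0.13, limma adjusted p = 0.00167) and 0.83 for CCND3 (SE 0.065, adjusted p = 0.000667), and both were called. The PAXIP1-AS1 part of it was 0.22 for CDK6 and -0.02 for CCND3. The rest is the LOC440173 effect that the pick of the group named, so nothing further is read from these calls. For CCND2 the difference of effects was 2.44 (SE 0.092), given as a description. The other 5 members were not called, and 11.1% of all probe sets were (8.48% higher and 2.64% lower). CDKN1B differed by 0.11 (95% interval -0.05 to 0.27, adjusted p = 0.387), since its rise with siRNA 1 and its fall with siRNA 2 offset each other in the mean. CDK4 differed by 0.16 (0.00 to 0.32, adjusted p = 0.185), and was called with a trend and robust prior (0.0295, in a range of 0.0295 to 0.407).

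**Figure D3:**
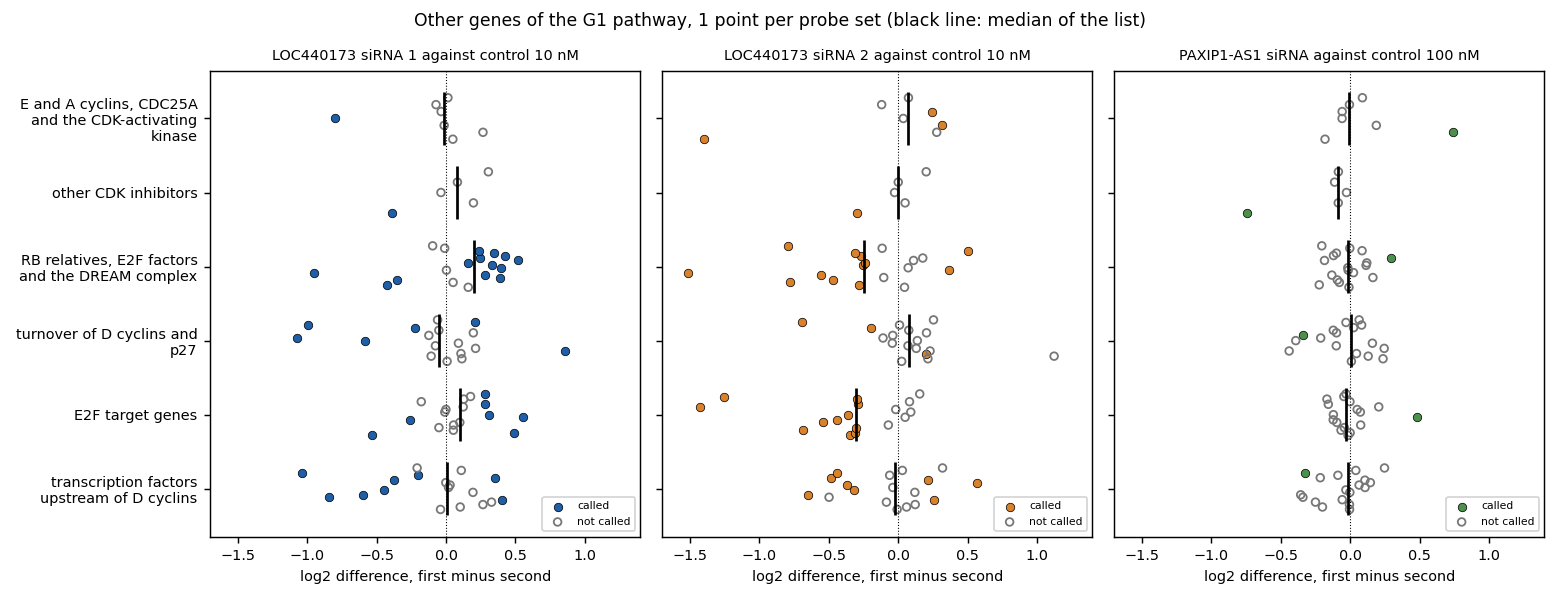
Log2 difference of other G1 pathway genes in 3 comparisons, 1 point per probe set, filled where the limma adjusted p was under 0.05; black lines are medians of each list. The E2F targets have their median at 0.10 with siRNA 1 and at -0.31 with siRNA 2, and the RB and E2F list at 0.20 and -0.25.

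The RB relatives, E2F factors and DREAM complex, which act on the same genes as RB1, had medians on opposite sides of 0 with the LOC440173 siRNAs. Of 18 probe sets 10 were higher and 3 lower with siRNA 1, with a median of 0.20, and 2 were higher and 10 lower with siRNA 2, with a median of -0.25. Set directly against siRNA 1, siRNA 2 had 2 higher and 11 lower. Over all probe sets the medians were 0.05, 0.01 and -0.05 in these comparisons. Of all probe sets 11.8% were higher and 16.4% lower with siRNA 1, 12.3% and 17% with siRNA 2, and 18% and 18.6% in the direct contrast. Each gene said to rise or fall in this and the following lists had a limma adjusted p under 0.05. E2F5, a repressive E2F, fell with both, by -0.95 (SE 0.087) and -1.51 (SE 0.087). It read 9.92 and 10.02 with the control, 8.99 and 9.05 with siRNA 1, and 8.33 and 8.58 with siRNA 2. E2F1, an activator of the G1/S genes, was 0.05 with siRNA 1 (limma adjusted p = 0.536) and fell by -0.78 (SE 0.056) with siRNA 2. MYBL2, also on this list, was -0.10 (adjusted p = 0.161) with siRNA 1 and fell by -0.79 (SE 0.046) with siRNA 2. The E2F partner TFDP2 and the DREAM subunit LIN37 rose with siRNA 1, by 0.52 (SE 0.063) and 0.43 (SE 0.083). With siRNA 2 TFDP2 was 0.11 (limma adjusted p = 0.254), and LIN37 was lower by -0.27 (adjusted p = 0.0452).

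E2F target genes had 5 of 17 probe sets higher and 2 lower with siRNA 1 (median 0.10), and 0 higher and 11 lower with siRNA 2 (median -0.31). In the direct contrast siRNA 2 had 1 higher and 11 lower. The shares over all probe sets were 11.8% higher and 16.4% lower with siRNA 1, 12.3% and 17% with siRNA 2, and 18% and 18.6% in the direct contrast. The thymidine kinase TK1 read 10.12 and 10.02 with the control, 10.14 and 10.24 with siRNA 1, and 8.69 and 8.59 with siRNA 2, so siRNA 2 stood alone. It fell by -1.43 (SE 0.065, limma adjusted p = 1.03e-05) with siRNA 2 and was 0.12 (adjusted p = 0.200) with siRNA 1. UHRF1, which guides maintenance DNA methylation, fell by -1.26 (SE 0.060) with siRNA 2 in the brighter of its 2 probe sets while the other gave 0.16 (adjusted p = 0.248). With siRNA 1 these probe sets gave 0.18 (adjusted p = 0.0640) and a rise of 0.28 (0.0457). The helicase subunit MCM2 fell by -0.68 (SE 0.050) with siRNA 2 and was 0.05 (adjusted p = 0.468) with siRNA 1. MCM7, another subunit, rose by 0.55 (SE 0.047) with siRNA 1 and was 0.05 (adjusted p = 0.507) with siRNA 2. The licensing factor CDT1 rose by 0.49 (SE 0.080) with siRNA 1 and fell by -0.31 (SE 0.080, adjusted p = 0.0223) with siRNA 2. CDC6, which loads the helicase with CDT1, fell with both, by -0.53 (SE 0.069) and -0.35 (SE 0.069).

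Other cyclins and inhibitors of the pathway changed gene by gene. Of the E and A cyclins, CDC25A and the CDK-activating kinase, 0 of 7 were higher and 1 was lower with siRNA 1, and 2 were higher and 1 was lower with siRNA 2, beside 28.2% and 29.3% of all probe sets called in either direction. CDC25A, the phosphatase that activates CDK2, fell by -0.80 (SE 0.052) with siRNA 1 and was 0.04 (limma adjusted p = 0.672) with siRNA 2. CCNE1, cyclin E1, read 9.48 and 9.59 with the control, 9.56 and 9.61 with siRNA 1, and 8.0 and 8.26 with siRNA 2, a fall of -1.40 (SE 0.086) with siRNA 2 and a difference of 0.05 (limma adjusted p = 0.699) with siRNA 1. The S-phase cyclin CCNA2 and the CDK-activating kinase subunit CCNH rose by 0.32 (SE 0.068) and 0.25 (SE 0.061) with siRNA 2, and were -0.01 and -0.04 (limma adjusted p = 0.896 and 0.693) with siRNA 1. Among 5 other CDK inhibitors, CDKN1A (p21) was the single call and was lower in every target comparison: by -0.39 (SE 0.058) with siRNA 1, -0.30 (SE 0.058) with siRNA 2 and -0.75 (SE 0.058) with the PAXIP1-AS1 siRNA.

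Of 17 probe sets of 14 genes that set the lifetime of D-type cyclins and p27, 2 were higher and 4 lower with siRNA 1 (median -0.05), and 1 was higher and 2 lower with siRNA 2 (median 0.08). Over all probe sets 11.8% were higher and 16.4% lower with siRNA 1, and 12.3% and 17% with siRNA 2. FBXO4, an F-box protein linked to cyclin D1 turnover, fell by -1.08 (SE 0.14) with siRNA 1, from 7.34 and 7.67 to 6.27 and 6.58, and was -0.11 (limma adjusted p = 0.643) with siRNA 2. The FBXO4 probe set was dim, with every group mean below the median of all probe sets (7.62). USP2, a deubiquitinase that stabilises cyclin D1, fell by -0.99 (SE 0.055) with siRNA 1, from 8.56 and 8.57 to 7.56 and 7.58, and was 0.01 (0.923) with siRNA 2. SKP1 was higher by 0.86 (SE 0.15) with siRNA 1 in its dimmer probe set, and the other gave 0.21 (adjusted p = 0.0707). With siRNA 2 they gave 0.23 and 0.13 (adjusted p = 0.324 and 0.257). RNF123, a ubiquitin ligase for p27, was higher by 0.21 (SE 0.055) with siRNA 1 and lower by -0.69 (SE 0.055) with siRNA 2, the same directions as CDKN1B. GSK3B, which marks cyclin D1 for export, was lower with both, by -0.22 (SE 0.057, limma adjusted p = 0.0223) with siRNA 1 and -0.20 (SE 0.057, adjusted p = 0.0328) with siRNA 2. Of 3 CKS1B probe sets 1 was higher with siRNA 2, by 0.20 (SE 0.047), and gave 0.11 (adjusted p = 0.132) with siRNA 1.

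Transcription factors upstream of the D-type cyclins had 2 of 18 higher and 6 lower with siRNA 1 (median 0.01), and 3 higher and 5 lower with siRNA 2 (median -0.02). The shares over all probe sets were 11.8% higher and 16.4% lower with siRNA 1, and 12.3% and 17% with siRNA 2. NOTCH1, a receptor whose cleaved form activates transcription, fell by -1.04 (SE 0.061) with siRNA 1, by -0.44 (SE 0.061) with siRNA 2 and by -0.33 (SE 0.061) with the PAXIP1-AS1 siRNA. The immediate early factors EGR1 and FOS fell by -0.84 (SE 0.17) and -0.60 (SE 0.11) with siRNA 1. With siRNA 2 FOS fell by -0.65 (SE 0.11), and EGR1 was -0.50 (SE 0.17, limma adjusted p = 0.0599). The FOS probe set was dim, with every group mean below the median of all probe sets (7.62). STAT3 was higher with siRNA 1 (0.35, SE 0.049) and lower with siRNA 2 (-0.49, SE 0.049), and the Wnt effector TCF7L2 rose with siRNA 2 by 0.57 (SE 0.045) and was -0.00 (limma adjusted p = 0.977) with siRNA 1.

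With the PAXIP1-AS1 siRNA 1 probe set was called in each of the 6 lists, which held 5 to 18 probe sets, where 4.33% of all probe sets were called. CCNE2, cyclin E2, rose by 0.74 (SE 0.092, limma adjusted p = 0.00682), MCM7 by 0.48 (SE 0.047, adjusted p = 0.00263) and the DREAM subunit LIN9 by 0.29 (SE 0.064, adjusted p = 0.0479). CDKN1A and NOTCH1 fell as given above, with adjusted p of 0.000995 and 0.0273. FBXO31, which directs cyclin D1 to degradation, fell by -0.34 (SE 0.067, adjusted p = 0.0340). With LOC440173 siRNA 1 and siRNA 2, CCNE2 was 0.27 and 0.28 (adjusted p = 0.0672 and 0.0565) and FBXO31 was -0.12 and -0.04 (0.207 and 0.742). LIN9 rose with siRNA 1, by 0.25 (adjusted p = 0.0240), and was 0.18 (0.0772) with siRNA 2.

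**Figure D4:**
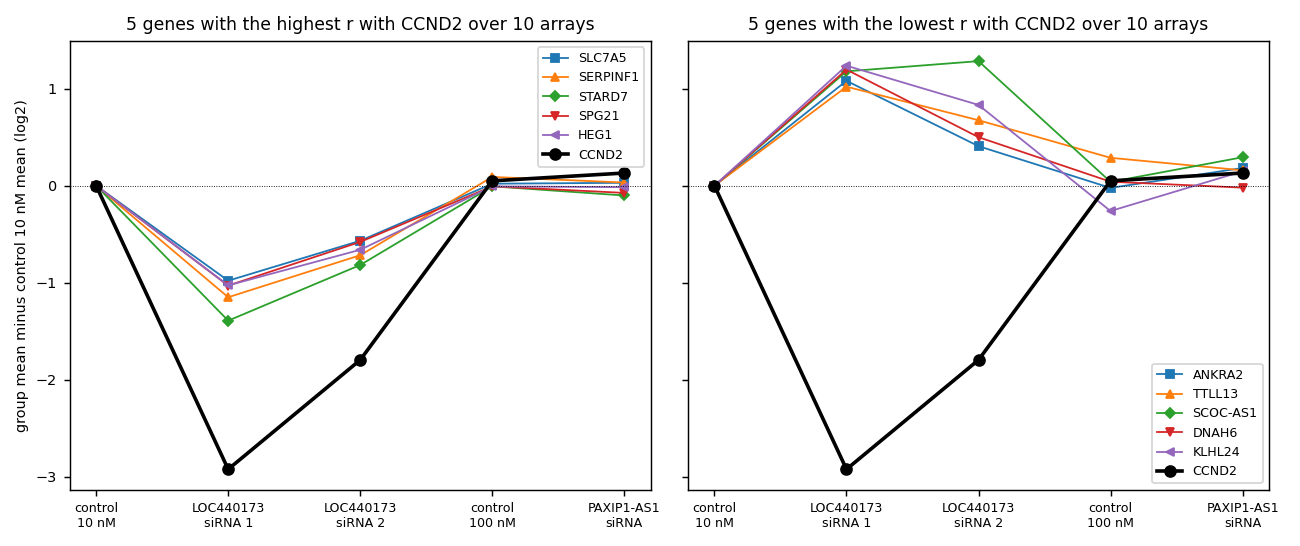
Group means relative to the control at 10 nM (log2) for CCND2 in black and for the genes with the highest (left) and lowest (right) Pearson r with it over 10 arrays. CCND2 reaches -2.92, and the 5 genes most like it reach -0.98 to -1.39 with siRNA 1.

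The pattern of CCND2 over the 10 arrays was compared with that of 843 other probe sets whose group means spanned at least 1 log2 unit. The highest Pearson r was 0.998 for SLC7A5, a subunit of a large neutral amino acid transporter. Its level was 10.96 and 10.97 with the control at 10 nM, 9.99 and 9.98 with siRNA 1, and 10.41 and 10.38 with siRNA 2, a range of 1.01 against 3.05 for CCND2. SERPINF1, STARD7, SPG21 and HEG1 followed at r = 0.993, 0.993, 0.990 and 0.989. All 5 were lowest with siRNA 1, with differences from -1.39 to -0.98, and intermediate with siRNA 2, from -0.82 to -0.57. The most opposite patterns were those of KLHL24 (r = -0.954), DNAH6 (-0.930, in its brightest probe set), SCOC-AS1 (-0.910), TTLL13 (-0.902) and ANKRA2 (-0.895). Other DNAH6 probe sets averaged 6.12, 5.46 and 5.12 with the control at 10 nM, and 6.35, 5.61 and 5.29 with siRNA 2. With siRNA 1 they averaged 6.82, 6.59 and 6.07. SCOC-AS1 and TTLL13 were dim, reaching 7.12 and 6.78 on their highest arrays. The arrays of a group share their treatment, so r here mostly reflects 5 group means and describes likeness of shape, with no test.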

How the data were processed

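RNA from HEK-293 cells was measured on 10 Affymetrix arrays, 2 per group, with groups taken from the sample titles. The deposited values are log2 probe set summaries, 1 column per array. Per the submitters' processing notes the authors used RMA, which corrects background, equalises the arrays by quantiles and summarises probes, and limma, both without a version. How the probe sets were defined, on which build and after which filters is not given in the sources used here. How far a probe set lies above background is therefore unknown, and precision is limited by the number of arrays.

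The platform annotation gave 1 symbol for 19158 of 32321 probe sets, several for 1388 and none listed for 11775. Gene IDs were looked up in a RefSeq table (GRCh38.p14), which held those of 19128 probe sets and lacked 30. Its coordinates were not used. Promoter windows came from a RefSeq sequence table that matched 6 of the 9 members.

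All 19158 probe sets on all 10 arrays entered a limma fit (version 3.58.1, R 4.3.3) with 1 mean per group and eBayes (5 residual and 2.77 prior degrees of freedom). Tests were two-sided, p-values were adjusted by Benjamini-Hochberg over the 19158, and a probe set with an adjusted p under 0.05 is named called. An exact permutation test of 2 arrays against 2 cannot go below p = 0.333, so calls rest on the spread pooled over groups. SE is that of the fit. The code was tested on simulated data.

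The members, the 6 pathway lists and the marker lists were chosen with earlier results of these data known. From each pathway list, up to 3 called genes with the largest difference and no overlap of groups were named per target siRNA, with the values of both LOC440173 siRNAs. Alternatives were a repeated quantile normalization, 1 probe set per gene, all probe sets of the table, dim probe sets (highest group mean below 7.62) left out, only the compared groups, a trend and robust prior, the replicate number as a block, and each array left out.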

Additional observations from a re-analysis of the deposited data

Results flagged for a closer look

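Both LOC440173 siRNAs were aimed at the same RNA. In the direct contrast of siRNA 2 with siRNA 1 limma called 3 of the 7 tested members, beside 36.6% of all probe sets. Nothing is read from that count. CCND3 was higher with siRNA 2 by 0.70, RB1 was higher by 0.34, and CDKN1B differed by -1.05, with opposite signs against the control.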

How the results depend on the processing

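Of 802 values of single members under an alternative, 789 were rated the same as in the main fit. Among tested members the others were changes of call, in CDK4, given with that gene, and in CDK2 with siRNA 2 replicate 2 left out. For CCND2, which has no test there, the others were shifts in size with direction kept. With an array of siRNA 2 left out its difference moved within -1.87 to -1.73 (siRNA 2 against control) and 1.06 to 1.20 (siRNA 2 against siRNA 1). Members called stayed between 4 and 5 with siRNA 1, 3 and 4 with siRNA 2, 3 and 4 between the siRNAs, 2 and 3 for the difference of effects, and at 0 for the PAXIP1-AS1 siRNA and the control doses. Calls over all probe sets moved more. When the fit held only the compared groups they were 3480 (5401 in the full fit) with siRNA 1, 2711 (5615) with siRNA 2 and 114 (829) with the PAXIP1-AS1 siRNA. The last count was 432 over all probe sets of the table, 1882 with dim probe sets left out, 1765 with a trend and robust prior, and 90 to 874 with an array left out: 120 and 173 without control 100 nM replicate 1 and 2, 117 and 90 without PAXIP1-AS1 replicate 1 and 2, and 453 without either array of siRNA 1. With an array left out, siRNA 1 calls ran from 3345 to 5759, with 3345 and 3479 without siRNA 1 replicate 1 and 2, and those for the difference of effects from 908 to 2135 (2130 in the full fit), with 1003 and 1186 without control 100 nM replicate 1 and 2 and 1030 and 908 without PAXIP1-AS1 replicate 1 and 2. The cause was not tested, beyond fewer arrays in these fits. Where a group was left with 1 array, that array was taken to vary like the others.

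Differences between replicate 2 and replicate 1 correlated between groups at r = 0.063 to 0.50 over 10 pairs of groups. All were above 0, and 6 were above 0.1. CDK2 and CDK6 were higher on replicate 2 than on replicate 1 in all 5 groups. The labels name nothing that arrays of one number share, and not every pair passed 0.1, so the block was kept as an alternative. With the replicate number as a block the PAXIP1-AS1 siRNA called 1281 probe sets, and the block changed no member's call. The difference of effects was not fitted on the compared groups alone, since it uses every group.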
